A study of Caenorhabditis elegans with 8 samples.

Results

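Small heat shock proteins and the inducible HSP70 of Caenorhabditis elegans were followed on arrays of fed and fasting adults. The rule took probe sets whose platform annotation gives 1 gene symbol among 9 names. It found 6 genes with 1 probe set each (hsp-16.2, hsp-16.41, hsp-12.3, hsp-12.6, hsp-17 and hsp-70) among 17118 genes with a probe set of their own. The other 3 names (hsp-16.1, hsp-16.11 and hsp-16.48) are listed only on probe sets shared with a near-identical gene. The hsp-70 probe set carries the array maker's suffix for probes that can match more than 1 transcript, so related HSP70 messages may enter its signal.

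Small heat shock proteins bind unfolding proteins through an alpha-crystallin domain and keep them from aggregating until chaperones of the HSP70 class, which use ATP, refold them. In C. elegans the hsp-16 genes and hsp-70 are nearly silent in unstressed animals and are switched on by heat through the transcription factor HSF-1. The FOXO factor DAF-16, which acts downstream of insulin signalling, also binds and activates small heat shock genes, hsp-12.6 being a known example. These genes are widely used as readouts of protein stress and of longevity pathways.

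Total RNA of whole adults was measured in 8 groups with 1 array each: fed and fasting animals of the strain N2 (wild type) and of 3 mutants, which carry the alleles ok369 of drsh-1, tm3681 of ain-1 or mu86 of daf-16. The drsh-1 gene encodes Drosha, the nuclease that starts microRNA maturation, ain-1 encodes a GW182-family partner of Argonaute, and the series asks what the microRNA machinery does in fasting and longevity. All animals were kept at 20 °C on plates with FUDR, a drug that stops progeny from developing, and on day 2 were moved to such plates with UV-killed OP50 bacteria (fed) or with none (fasting), and were collected as day 4 adults. No source used here says how many animals or cultures a sample pooled. No group had replicates, so differences within 1 strain are descriptions, and every p-value below measures only the spread between arrays of different strains or foods, which may be technical.

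Array medians lay between 35.3 and 37.8 on the linear intensity scale of the deposited values. The targeted genes were low in 2 of the mutants on part of their probe sets: 1 of 2 drsh-1 probe sets read 13.96 and 17.1 in the drsh-1 arrays against 183 and 185 in wild type (the other read 397 and 357 against 68.7 and 68.8), and 1 of 4 daf-16 probe sets read 9.27 and 8.98 in daf-16 against 76.4 and 69.5. The ain-1 probe sets were near wild type in ain-1 and, with the position of the probes not given in the sources used here, check nothing. The fasting daf-16 array stood apart in its controls, with a catalase 3′ to 5′ ratio of 3.40 against 1.47 to 1.79 on the other 7 arrays. For the 6 genes, the fit without drsh-1 and the test of the drsh-1 response are therefore also given without the daf-16 pair. So are the chaperone counts without drsh-1. In the fit over 4 strains this was done only for hsp-17 and for counts of genes or probe sets called. Mutants against wild type and the other chaperone results are given only with that pair included. All 18 markers of muscle, intestine, yolk, epidermis, neurons and germline had intensity above 0 on every array, which does not show that they were detected. The epidermal marker bli-1 read 13.3 fed and 12.7 fasting in drsh-1, below 15.8, the mean intensity needed for a test.

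The heat-inducible hsp-16.2 and hsp-16.41 had more message in fasting animals of wild type, ain-1 and daf-16. In drsh-1 both lay between the fed and fasting wild-type values, with and without food. Fasting drsh-1 was too close to fasting wild type for hsp-16.41 to be told apart. For hsp-16.2, intensity was 26.1 fed and 186 fasting in wild type, 45.7 and 389 for ain-1, 58.6 and 595 in daf-16, and 116 and 125 in drsh-1. These are ratios of 7.14, 8.50 and 10.2 in the first 3 strains and of 1.07 in drsh-1. All 4 fed arrays lay below all 4 fasting arrays, but the fed drsh-1 array, at 4.46 times the fed wild-type level, came close to the fasting drsh-1 array.

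The neighbouring gene hsp-16.41 read 11.4 fed and 68.2 fasting in wild type, 21.1 and 161 for ain-1, 23.9 and 207 in daf-16, and 48.2 and 57.1 in drsh-1. Its 8 arrays ranked in the same order as those of hsp-16.2, with a Spearman rho of 1 and a Pearson r of 0.997 over 8 arrays, which share strains and food and are given here as a description. By RefSeq annotation of assembly WBcel235, no gene starts between hsp-16.2 and hsp-16.41. The wild-type fed value of 11.4 lies below 15.8, the mean intensity a probe set needed to be tested, so the ratio of 5.97 in wild type is less certain than those of 7.64 in ain-1 and 8.63 in daf-16.

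The inducible HSP70 gene hsp-70 had its highest values in fasting animals of the same 3 strains. Its intensity was 16.6 fed and 59.97 fasting in wild type, 20.3 and 50.6 for ain-1, 24.6 and 56.9 in daf-16, and 40.3 and 37.1 in drsh-1. The 3 fasting values outside drsh-1 were the highest of the 8, the 3 fed values outside drsh-1 the lowest, and both drsh-1 arrays lay between them.

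**Figure D1:**
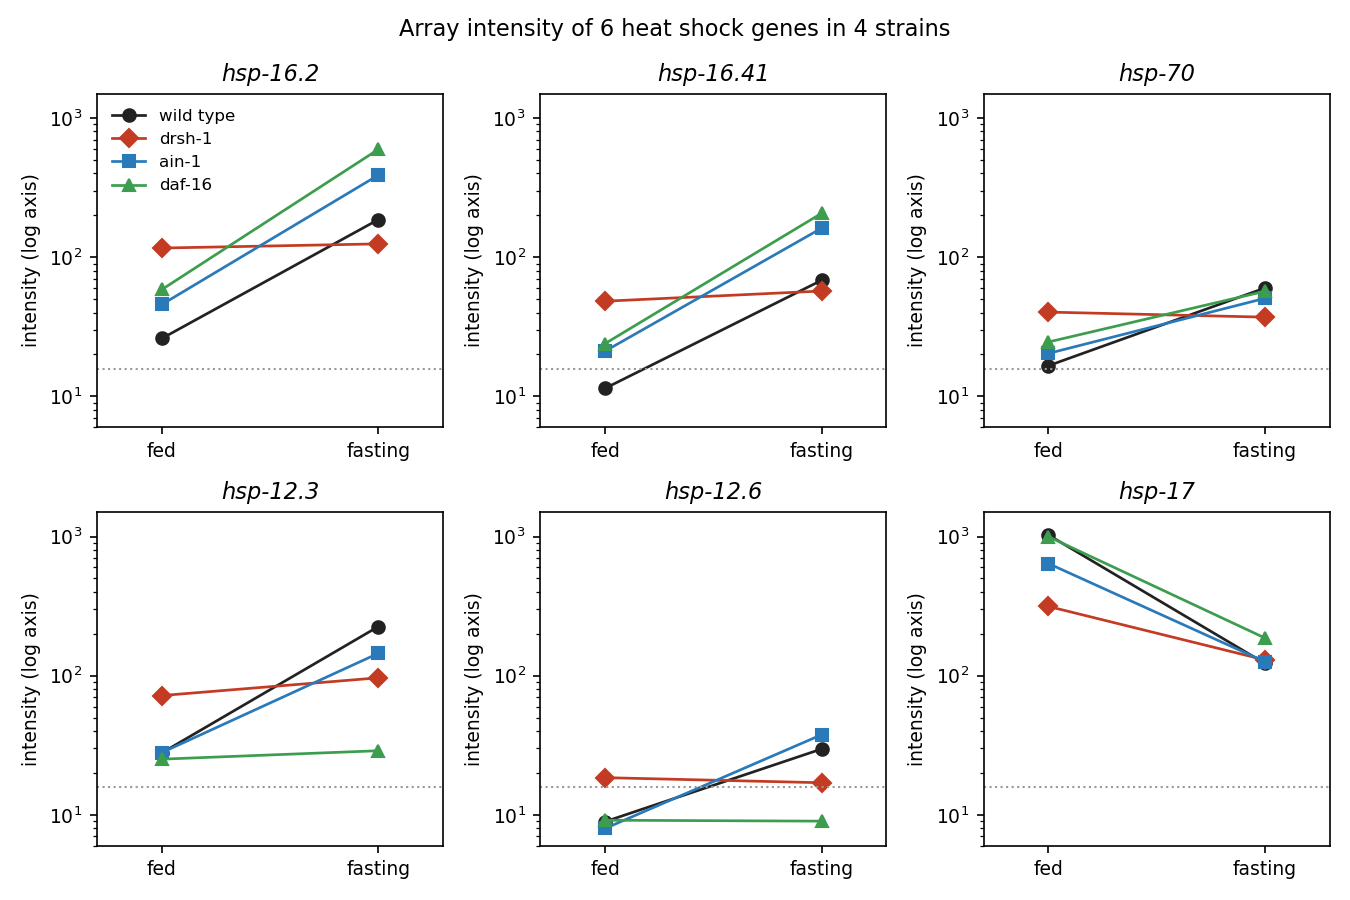
Array intensity on a logarithmic axis for each of the 6 genes, fed and fasting, with 1 array per point and a line joining the arrays of a strain; the dotted line marks the filter level of 15.8. The drsh-1 lines of hsp-16.2, hsp-16.41 and hsp-70 are nearly flat at a middle level, the daf-16 lines of hsp-12.3 and hsp-12.6 are flat at a low level, and hsp-17 slopes downward in all 4 strains.

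The second pair of neighbours, hsp-12.3 and hsp-12.6, which encode short small heat shock proteins, differed from the hsp-16 genes in the daf-16 mutant. For hsp-12.3, intensity was 27.9 fed and 225 fasting in wild type, while ain-1 read 28.02 and 145, ratios of 8.08 and 5.16, but 25.1 and 28.9 in daf-16. The drsh-1 arrays read 72.0 fed and 96.5 fasting, again between the fed and fasting levels of wild type. The fasting daf-16 level of hsp-12.3 was thus close to that of fed wild type, ain-1 and daf-16 and below that of fed drsh-1, on the same array that had the highest hsp-16.2 and hsp-16.41 of the series.

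Intensity of hsp-12.6 was 8.93 fed and 29.7 fasting in wild type, 7.98 and 37.6 for ain-1, 9.14 and 9.003 in daf-16, and 18.5 and 16.997 in drsh-1. It was above 15.8 only on the fasting wild-type and ain-1 arrays and on both drsh-1 arrays, and 4 of its 8 values fell below that level, so that its ratios are rough. The gene passed the filter with a mean of 17.2, which rests on those higher arrays. Over the 8 arrays it had a Pearson r of 0.94 with hsp-12.3 and 0.503 with hsp-16.2, and no annotated gene starts between hsp-12.3 and hsp-12.6.

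The remaining small heat shock gene, hsp-17, went the other way and was higher with food in every strain. It read 1025 fed and 123 fasting in wild type, 639 and 126 for ain-1, 997 and 187 in daf-16, and 314 and 129.8 in drsh-1. All 4 fed arrays exceeded all 4 fasting arrays, and the fed level was 8.36, 5.07, 5.35 and 2.42 times the fasting level in wild type, ain-1, daf-16 and drsh-1. The fasting values of wild type, ain-1 and drsh-1 lay between 123 and 129.8, so these strains differed mainly in the fed state. In daf-16 the fed value was near that of wild type, and the fasting value was 1.52 times that of wild type.

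The 3 names without a probe set of their own can be followed only jointly. The probe set listed for both hsp-16.1 and hsp-16.11 read 171 fed and 338 fasting in wild type, 197 and 566 for ain-1, 208 and 724 in daf-16, and 422 and 404 in drsh-1. The probe set listed for hsp-16.48 and hsp-16.49 read 235 and 426 in wild type, 236 and 689.5 for ain-1, 279.98 and 947 in daf-16, and 517 and 461 in drsh-1. Neither can be assigned to 1 gene, and both stayed outside the counts. Their fed drsh-1 arrays exceeded the fasting wild-type arrays, which was not so for hsp-16.2 and hsp-16.41.

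Differences within a strain were set on the scale log2(intensity + 16), on which low genes show less than their true ratio, and counted at 2-fold. In wild type 4 of the 6 genes were at least 2-fold higher in fasting (hsp-12.3 at 2.46, hsp-16.2 at 2.27, hsp-16.41 at 1.62 and hsp-70 at 1.22) and hsp-17 was lower (-2.91), where 2.58% and 3.36% of all 15783 probe sets tested passed that fold upward and downward. In ain-1 the counts were 4 and 1, against 2.73% and 3.49% of all, and hsp-16.2 at 2.71 was exceeded by 5 probe sets of the array. In daf-16 they were 2, the hsp-16 pair at 3.03 and 2.48, and 1, against 7.17% and 5.01%. In drsh-1 they were 0 and 1, against 0.0317% and 1.04%, with hsp-17 at -1.18 and hsp-12.3 the highest of the 6 at 0.35. Few probe sets of any kind passed 2-fold upward in drsh-1, so the count of 0 is near the background of that strain.

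**Figure D2:**
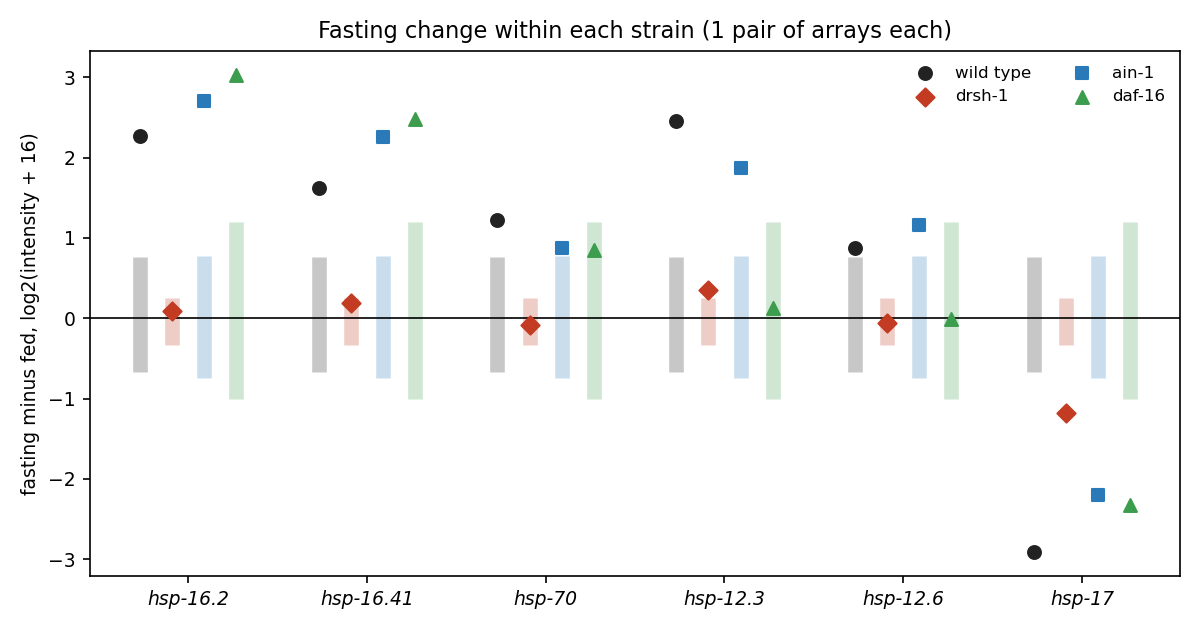
Fasting minus fed on the log2(intensity + 16) scale for each gene in each strain, 1 pair of arrays per point; the pale bars span the 5th to 95th percentile of all 15783 probe sets in that strain. In wild type and ain-1 all genes except hsp-17 lie above the bars, in daf-16 hsp-16.2 and hsp-16.41 do, in drsh-1 hsp-12.3 does at 0.35, and hsp-17 lies below the bars in all 4 strains.

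The average fasting response of all strains was then tested with limma, with strain as a block and Benjamini-Hochberg adjustment over all probe sets. By this test hsp-17 fell by 2.15 ± 0.26 on the log2 scale (SE, adjusted p = 0.011), a 4.45-fold difference on average. It was lower in fasting animals in 4 of 4 strains, by unlike amounts. No gene of the 6 was called higher (0, against 0.405% of all probe sets) and 1 was called lower (against 2.86%), while 5 had an unadjusted p under 0.05. The call for hsp-17 was lost without the ain-1 pair (-2.14, adjusted p = 0.067) and without the daf-16 pair (-2.10, adjusted p = 0.091). Estimates of the others were 2.03 ± 0.46 for hsp-16.2 (adjusted p = 0.064), 1.63 ± 0.36 for hsp-16.41 (0.062), 1.20 ± 0.39 for hsp-12.3 (0.11), 0.71 ± 0.20 for hsp-70 (0.084) and 0.49 ± 0.21 for hsp-12.6 (0.17). In this model a response that is absent from 1 strain counts as error. The median over the 6 genes was 0.96, beside 0.01 over all probe sets.

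In bulk RNA fewer cells of a tissue and less message per cell cannot be told apart. Of the 18 tissue markers, 7 fell and 0 rose in the same test, beside 2.86% and 0.405% of all probe sets. The summed intensity of 3 intestinal markers was 770 to 1072 in fed and 265 to 485 in fasting animals, and that of 3 muscle markers 1028 to 2456 and 484 to 1142. Fed and fasting sums of yolk markers did not overlap, and those of muscle, epidermis, neurons and germline did. For neurons they were 131 to 180 and 115 to 186. The part of these tissues in the fall of hsp-17 was not tested.

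Without the drsh-1 pair, 4 of the 6 genes rose and 1 fell over the 3 remaining strains. That pair was left out because earlier results of these data had shown a different response in drsh-1. The choice removes a known source of spread, so the p-values of this fit are not those of a test fixed beforehand. Here hsp-16.2 rose by 2.67 ± 0.18 (limma, adjusted p = 0.00069), hsp-16.41 by 2.12 ± 0.18 (0.0014), hsp-70 by 0.98 ± 0.10 (0.0028) and hsp-12.3 by 1.48 ± 0.42 (0.049), and hsp-17 fell by 2.48 ± 0.17 (0.00073). Of all probe sets 15% were called higher and 8.91% lower in this fit. The estimate for hsp-12.6 was 0.68 ± 0.21 (limma, adjusted p = 0.063), and it was called without the wild-type pair (adjusted p = 0.013) and without the daf-16 pair (0.00027). This gene passed the filter only through the arrays where it is high, so these calls add no support. The hsp-12.3 call stands at the threshold and was lost with no filter, with quantile normalization, with a pseudocount of 64 and without the mean-variance trend (adjusted p = 0.052 to 0.081).

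With the daf-16 pair left out as well, so that only wild type and ain-1 remained, 5 genes were called higher and hsp-17 lower, where 19.3% and 11.8% of all probe sets were. There hsp-12.3 rose by 2.16 ± 0.16 (limma, adjusted p = 0.00017) and hsp-12.6 by 1.02 ± 0.083 (0.00027), both estimates above those over 3 strains. Both fed values of hsp-12.6 in this fit lie below 15.8, and the gene was tested only because its higher arrays lift its mean, so its call is no support beside the others. The estimates for hsp-16.2 (2.49 ± 0.14) and hsp-16.41 (1.94 ± 0.16) were lower than with daf-16 included. This fit has 1 residual degree of freedom, so its spread comes from the difference between wild type and ain-1 and from the values shared across probe sets.

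**Figure D3:**
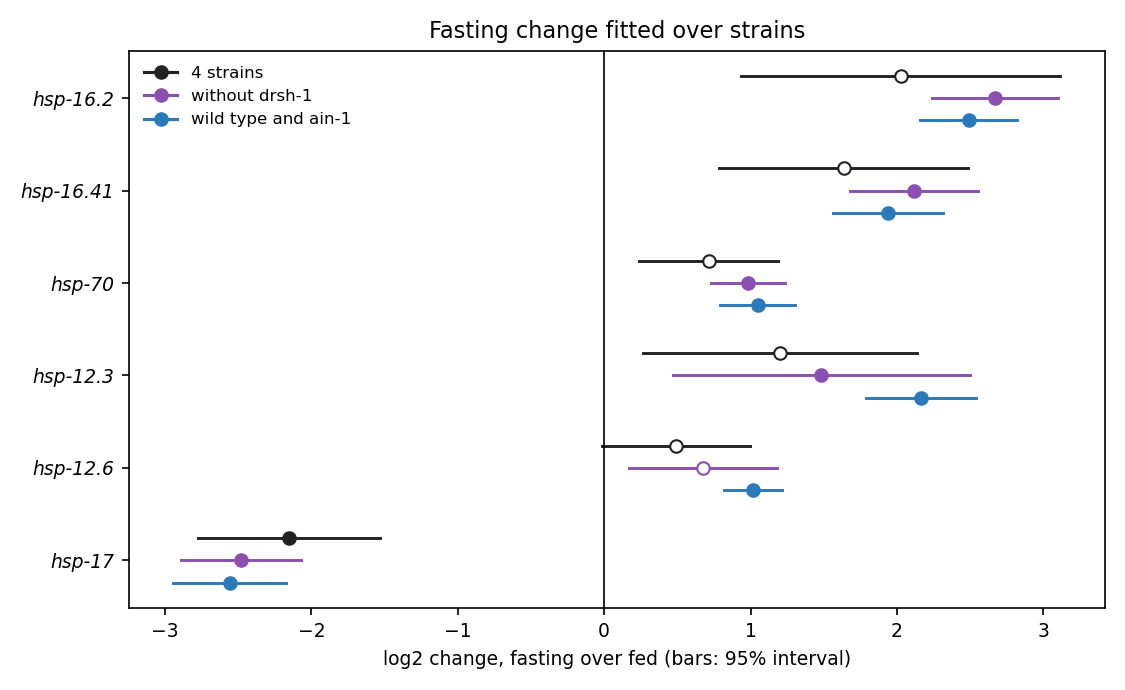
Fitted log2 change of fasting over fed with 95% intervals for each gene, over all 4 strains, without drsh-1, and in wild type and ain-1 alone; filled points were called at an adjusted p under 0.05. Over 4 strains the intervals are wide and hsp-17 alone is filled, while in wild type and ain-1 all 6 points are filled.

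Whether the response of drsh-1 itself differed was tested by adding a separate fasting change for that strain. Against the other 3 strains, hsp-16.2 changed less in drsh-1 by 2.58 ± 0.35 on the log2 scale, but with limma's adjusted p = 0.14 it was not called, nor was any other of the 6 genes. By this test 0 of all probe sets (0%) were called in either direction, 4 of the 6 genes had an unadjusted p under 0.05, and 2150 probe sets did.

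Without the daf-16 pair the same fit gave 5 genes lower and hsp-17 higher at an adjusted p under 0.05, with 4.05% of all probe sets called lower and 2.06% higher. The differences, drsh-1 minus wild type and ain-1, were -2.40 ± 0.24 for hsp-16.2 (limma, adjusted p = 0.0074), -1.81 ± 0.27 for hsp-12.3 (0.020), -1.75 ± 0.27 for hsp-16.41 (0.021), -1.13 ± 0.19 for hsp-70 (0.025), -1.08 ± 0.14 for hsp-12.6 (0.014) and 1.38 ± 0.28 for hsp-17 (0.042). With the wild-type pair or the ain-1 pair left out in place of daf-16, hsp-16.2 (adjusted p = 0.0047 and 0.033) and hsp-16.41 (0.0057 and 0.047) were called and the other 4 genes were not. These fits, chosen after the data were seen, have 1 residual degree of freedom, which comes from the 2 strains set against drsh-1. The lone drsh-1 pair has no residual of its own and is assumed to vary like them, so these p-values do not measure how variable the drsh-1 change is, and the call for hsp-12.6 has the limit given above.

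The fasting change of daf-16 was set against that of other strains in the same way. Against the other 3 strains no gene was called (0, with 0% of all probe sets, and 0 of the 6 at an unadjusted p under 0.05), a fit in which the drsh-1 response counts as error. Against wild type and ain-1 alone, hsp-12.3 had a difference of -2.04 ± 0.27 and hsp-12.6 of -1.03 ± 0.14 (limma, adjusted p = 0.029 for both), and 1.85% of all probe sets were called lower and 1.83% higher. In that fit hsp-16.2 (0.55 ± 0.24, adjusted p = 0.20) and hsp-16.41 (0.54 ± 0.28, adjusted p = 0.27) were not called, with 95% intervals of -0.02 to 1.12 and -0.12 to 1.20. The residual again comes from wild type and ain-1 alone, the single daf-16 pair is assumed to vary like them, and the hsp-12 and hsp-16 genes were not tested against each other. For hsp-12.6 both daf-16 values lie below 15.8, and it was tested only through the arrays where it is high, so its call adds no support. These daf-16 values rest on the fasting daf-16 array with the high catalase ratio, whose part in them was not tested. That array was the highest of the 8 for hsp-16.2 and lay with the fed wild-type, ain-1 and daf-16 arrays for hsp-12.3.

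**Figure D4:**
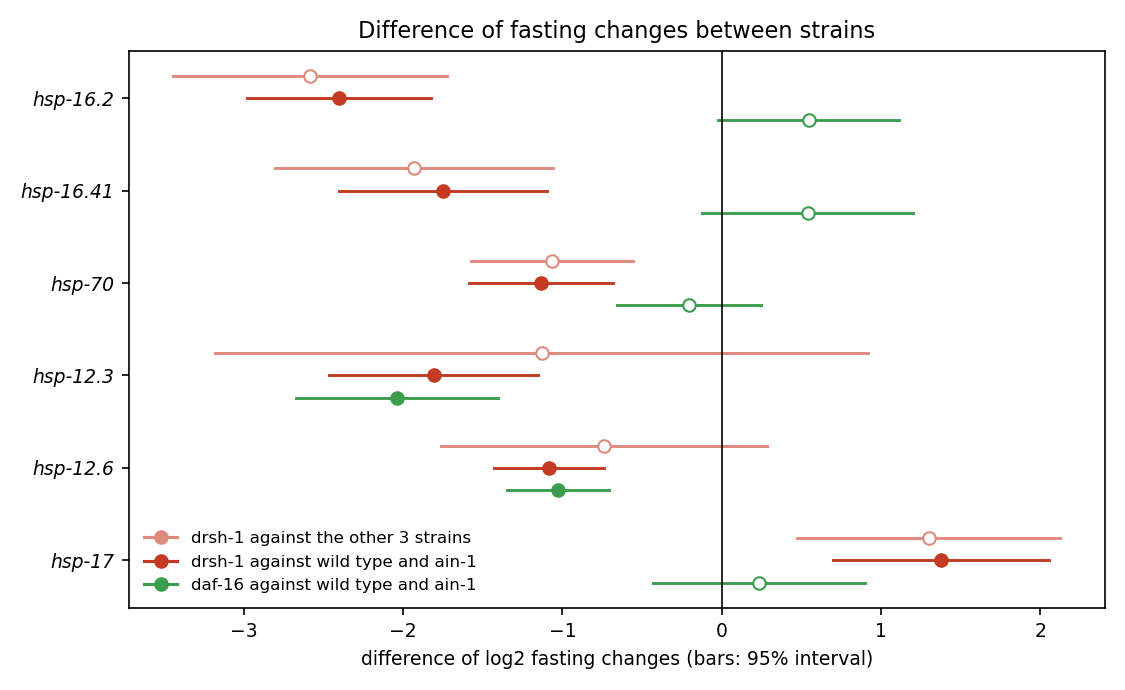
Difference between the fasting change of 1 strain and that of others for each gene, with 95% intervals; filled points were called at an adjusted p under 0.05. In drsh-1 the 5 genes that were higher in fasting changed less and hsp-17 fell less, with all 6 filled against wild type and ain-1, while in daf-16 hsp-12.3 and hsp-12.6 are filled.

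Mutants were also set against wild type across both foods, in the fit over all 8 arrays. None of the 6 genes was called in drsh-1, ain-1 or daf-16 by limma (0 in each, and 0 at an unadjusted p under 0.05), where 8.04% of all probe sets were higher and 3.74% lower in drsh-1. For ain-1 these shares were 0.00634% and 0.0444%, and for daf-16 0% (1382 at an unadjusted p under 0.05). The estimate for drsh-1 was 0.56 ± 0.65 for hsp-16.2 and -0.79 ± 0.37 for hsp-17 (limma, adjusted p = 0.61 and 0.21), and that for daf-16 was -1.26 ± 0.55 for hsp-12.3 (0.59). All 3 mutants share 1 SE per gene, in which the unlike drsh-1 fasting change counts as error, so the lack of calls does not show equal levels. For hsp-12.3 in daf-16 the average joins -0.09 in fed and -2.43 in fasting animals on the log2(intensity + 16) scale. For drsh-1 too this average joins unlike states. In fed drsh-1 animals 3 of the 6 genes were at least 2-fold higher than in fed wild type on the log2(intensity + 16) scale (hsp-16.2 at 1.65, hsp-16.41 at 1.23 and hsp-12.3 at 1.003) and hsp-17 was lower (-1.66), where 4.61% and 3.36% of all probe sets were. The count of 3 was 1 at a 3-fold threshold or with a pseudocount of 64, and 4 with a pseudocount of 1. In fasting drsh-1 animals 1 of the 6 genes was at least 2-fold lower than in fasting wild type (hsp-12.3 at -1.10) and 0 higher, where 3.78% and 3.82% of all probe sets were, and hsp-16.2 differed by -0.52, hsp-70 by -0.52, hsp-12.6 by -0.47, hsp-16.41 by -0.20 and hsp-17 by 0.07. In the other mutants the fed levels were nearer to wild type than in drsh-1, and the hsp-16 pair was above wild type in both foods. In fed ain-1 0 of the 6 passed 2-fold on the log2(intensity + 16) scale in either direction (0.558% and 0.437% of all higher and lower). In fed daf-16 0 did (0.19% and 1%), with hsp-16.2 at 0.83. As plain ratios of intensity, hsp-16.2 and hsp-16.41 were 1.75 and 1.85 times wild type in fed ain-1 and 2.25 and 2.10 in fed daf-16. In fasting ain-1 these ratios were 2.09 and 2.37. On the log2 scale 2 genes passed 2-fold upward there (0.393% of all), hsp-16.2 at 1.001, and 0 downward (0.697%). In fasting daf-16 the ratios were 3.20 and 3.03, with 2 genes higher on the log2 scale (1.85%) and 1 lower (1.44%). The lower gene was hsp-12.3, with an intensity lower by 7.80 times. These comparisons share the wild-type arrays with the wild-type fasting change given above.

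Neighbours in the order of levels were often too close to tell apart. As a yardstick, 2 SD of a difference between arrays, from the median residual of the fit over all probe sets, was 0.42 on the log2 scale. For hsp-70 and hsp-12.6 no gap between neighbouring arrays exceeded it. For hsp-16.2 the exceptions were fasting and fed drsh-1 (gap 0.09) and fed daf-16 and fed ain-1 (0.27), and the other gaps were larger. For hsp-16.41 the gaps that did not exceed 0.42 included those from fasting wild type to fasting drsh-1 (0.20) and from there to fed drsh-1 (0.19). The low group of hsp-12.3, made of both daf-16 arrays and the fed ain-1 and wild-type arrays, held gaps of 0.0039 to 0.09.

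None of the other chaperone genes passed the test over 4 strains. Of 72 genes on 6 lists of heat shock factors and chaperones, 63 could be tested, and over 4 strains 0 were called with fasting by limma (18 had an unadjusted p under 0.05). Their changes ran from -0.43 to 0.76 with a median of 0.05. The gene of HSF-1 itself, hsf-1, had -0.18 ± 0.13, and its inhibitor hsb-1 0.13 ± 0.12. The largest changes among J-domain genes were 0.76 ± 0.24 (dnj-14), 0.57 ± 0.14 (dnj-12), 0.54 ± 0.20 (dnj-7) and -0.43 ± 0.15 (dnj-17). Of 15 chaperonin and prefoldin genes 14 had a positive estimate, with a median of 0.28, and 0 were called. The 4 other small heat shock genes tested had -0.36 (hsp-43), -0.29 (hsp-25), -0.22 (hsp-12.2) and 0.01 (sip-1), and none passed (limma, adjusted p = 0.22 to 0.97).

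Without the drsh-1 pair, 11 of the 63 rose and 1 fell, beside 15% and 8.91% of all probe sets. With the daf-16 pair left out as well, 16 rose and 6 fell by limma, beside 19.3% and 11.8% of all. The values that follow are over the 3 strains. The gene dnj-14, for a J-domain protein of the cysteine string type, read 188 in fed and 367 in fasting wild type and rose by 1.06 ± 0.15 (limma, adjusted p = 0.0070). Its relative dnj-12 rose by 0.71 ± 0.12 (0.011). Of the cytosolic chaperonin and prefoldin genes cct-3 rose by 0.69 ± 0.15 (0.022) and pfd-5 by 0.51 ± 0.091 (0.013), while hsp-60, the mitochondrial chaperonin, fell by 0.53 ± 0.11 (0.020). The HSP90 gene hsp-90 rose by 0.26 ± 0.066 (0.037) and ahsa-1, for its activator, by 0.50 ± 0.12 (0.029).

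In drsh-1 against wild type 8 of the 63 were higher and 0 lower by limma, beside 8.04% and 3.74% of all probe sets, and the median of the 63 was 0.35 where that of all probe sets was -0.0022. Of 6 other HSP70 and HSP110 genes 4 rose: hsp-6, the mitochondrial HSP70, by 0.84 ± 0.15 (adjusted p = 0.019), the constitutive cytosolic hsp-1 by 0.74 ± 0.10 (0.0079), and the endoplasmic reticulum chaperones hsp-3 by 0.60 ± 0.13 (0.035) and hsp-4 by 0.47 ± 0.12 (0.049). Intensity of hsp-1 was 5408 fed and 5347 fasting in drsh-1 against 3202 and 3219.7 in wild type. The heat shock factor binding gene ddl-1 rose by 0.88 ± 0.18 (0.027).

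**Figure D5:**
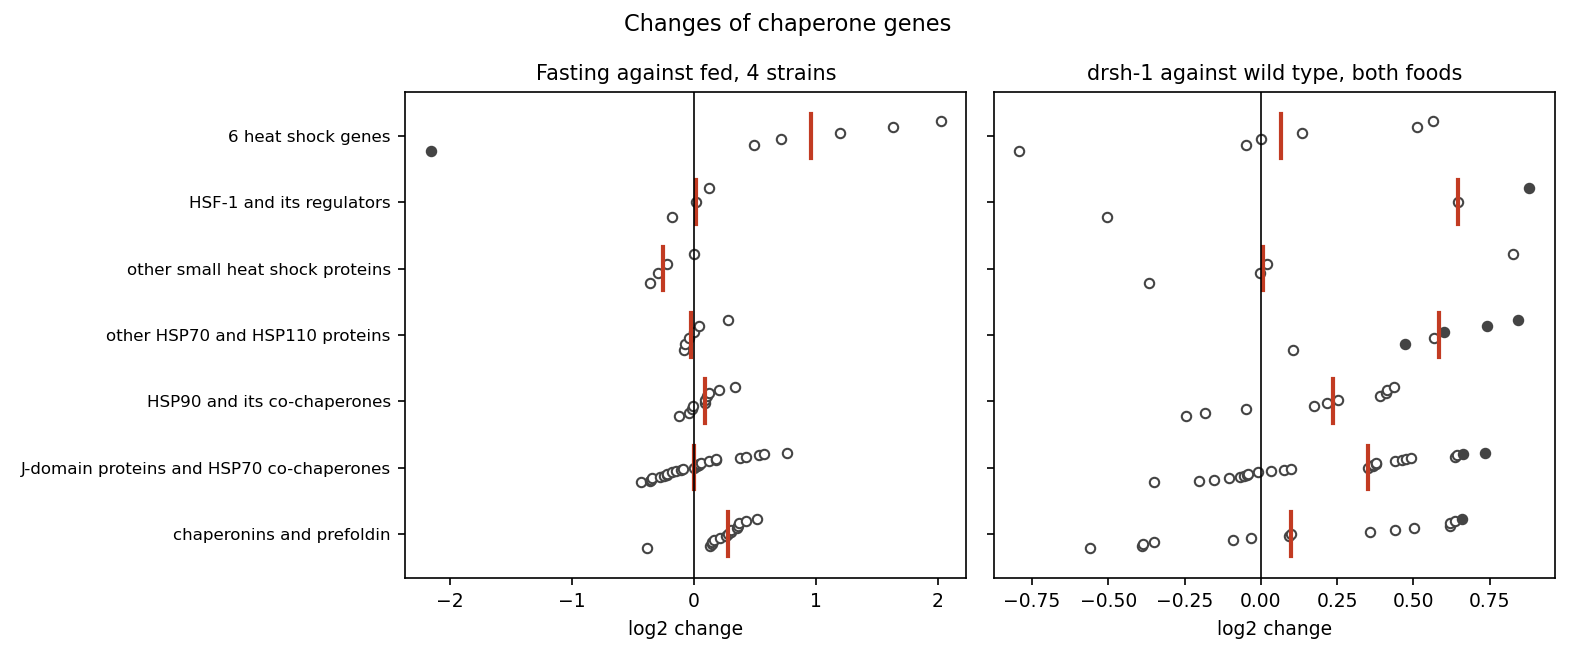
Log2 change of single genes (points) and their median (red bar) for the 6 heat shock genes and for 6 lists of chaperone genes, for fasting over 4 strains (left) and drsh-1 against wild type over both foods (right); filled points were called at an adjusted p under 0.05, and the axes differ in span. On the left hsp-17 alone is filled and the lists lie between -0.43 and 0.76, while on the right 4 of 6 genes on the list of other HSP70 and HSP110 proteins are filled.

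Genes with patterns most like these were sought among 1693 other genes whose SD over the arrays was at least 0.5, by Pearson r over 8 arrays, given without a test. The 6 nearest to the mean of hsp-16.2 and hsp-16.41 were F32H2.6 (r = 0.993), the C-type lectin gene clec-266 (0.988), F21D9.6 (0.988), the hedgehog-related gene wrt-10 (0.983), K09E9.3 (0.981) and the protein kinase gene pkn-1 (0.981). As an example, F32H2.6 read 23.7 fed and 65.6 fasting in wild type and 59.0 and 60.1 in drsh-1. The 3 nearest to hsp-70 were T16G1.7 (0.979), F20C5.6 (0.979) and mnp-1 (0.978).

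For hsp-12.3 the nearest were spi-2 (0.954), the glucuronosyltransferase gene ugt-1 (0.937) and the linker histone gene hil-1 (0.924). For hsp-12.6 they were slc-36.5 (0.942), icmt-1 (0.921) and the flavin monooxygenase gene fmo-1 (0.9). For hsp-17 they were F28H7.3 (0.992), txt-14 (0.989) and sid-2 (0.989), the last a gene for uptake of double-stranded RNA from the gut. Intensity of F28H7.3 was 1061 in fed and 46.2 in fasting wild type. With 8 arrays and 1693 genes compared, high values of r are reached by many genes.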

How the data were processed

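The deposited table holds array intensity per probe set on a linear scale, and the authors' summary and normalization method is not stated in the sources used here. Per the labels' protocols, RNA was taken with Trizol and labelled with biotin by 3′ in vitro transcription. Of 22625 probe sets 77 controls were not tested. The other 22548 were used as deposited, as log2(intensity + 16), without the 30% of lowest mean (under 15.8), which left 15783. Names came from the platform annotation (20766 probe sets with 1 symbol, 887 with several, 895 not listed), updated through RefSeq (WBcel235, 20701 matched). No value is a detection call.

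Tests used limma (version 3.58.1, under R version 4.3.3), with the prior variance following mean intensity, adjusted over all probe sets and called under 0.05. The fits over all strains and the fasting fit without drsh-1 were checked on simulated data. The other fits that left out a pair were not, and these include all fits with 1 residual degree of freedom. The number of arrays limits the precision. The members, lists and fits were chosen with earlier results of these data known. A gene on a list or compared by pattern was represented by its probe set of highest mean intensity where it had several. Some of these probe sets, among them those of hsf-1, hsp-3, hsp-4 and hsp-60, carry suffixes for probes that can match more than 1 transcript. The text names the members, the targeted genes, up to 4 genes per list by size of the fasting change over 4 strains, and the 6 or 3 genes most like each pattern. 1 further gene, hsp-4, was named after its values were seen.

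Alternatives were no filter, quantile normalization, pseudocounts of 1 and 64, no trend, array weights, no strain block, a 3-fold threshold, and leaving out the pair of arrays of a strain.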

Additional observations from a re-analysis of the deposited data

Results flagged for a closer look

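Strains moved in opposite directions in 3 instances, none of them tested. The change of hsp-12.6 was -0.064 in drsh-1 and -0.0080 in daf-16 where it was 0.87 in wild type, and that of hsp-70 was -0.085 in drsh-1 where it was 1.22 in wild type. All 3 negative values are smaller than 0.21, the SD of a difference of 2 arrays, so they are near 0 and do not show a fall.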

How the results depend on the processing

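Leaving out pairs in the fit without drsh-1 and in the tests of a strain's response was chosen after the data were seen. For fasting over 4 strains the number of the 6 genes called was 1, became 6 with array weights, and ranged from 0 to 5 when the pair of arrays of 1 strain was left out. In the same fit 515 probe sets in all were called, and from 96 (without daf-16) to 6360 (array weights) under the alternatives. Over 3 strains the count of the 6 genes was 5, with 4 to 6, and 3766 probe sets became 2527 to 4908. For drsh-1 against wild type 1859 became 943 without ain-1. For ain-1 8 became 493 with array weights, and for daf-16 0 became 2 with a pseudocount of 1. In the test of the drsh-1 response the count of the 6 genes ranged from 2 to 6 on leaving out a pair (965 probe sets in all without daf-16), and in that of daf-16 from 0 to 2 (581 without drsh-1). Within strains, a pseudocount of 64 gave 2 genes higher in wild type and 0 lower in drsh-1, and a 3-fold threshold gave 0 lower in drsh-1. Between strains (alternatives also chosen after the data were seen), genes at least 2-fold higher in fed drsh-1 than in fed wild type numbered 3, and 1 with a pseudocount of 64 or at 3-fold. Genes lower in fasting drsh-1 numbered 1, and 0 under both of these. Genes higher in fasting ain-1 numbered 2, and 1 with quantile normalization and 0 under both. For daf-16 a pseudocount of 1 gave 2 higher in the fed state (0 as reported) and 2 lower in fasting (1), and 3-fold gave 1 higher in fasting (2). Signs reversed for values that were not called: drsh-1 against wild type for hsp-12.6 (0.018 with quantile normalization, 0.10 with a pseudocount of 1) and hsp-12.3 (0.061 with a pseudocount of 1), ain-1 against wild type for hsp-70 (0.018 with a pseudocount of 1), and the daf-16 response on leaving out a pair, which ranged from -0.63 to 0.23 for hsp-17 and from -0.20 to 0.45 for hsp-70 (0.23 and -0.20 without drsh-1). The cause was not tested. Each group had 1 array, so replicates could not be paired. Fed and fasting arrays were joined by strain in the fits given.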
